A study of Equus caballus with 19 samples.

Results

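The genes described here were the ligands and receptors of platelet-derived growth factor (PDGF) and hepatocyte growth factor (HGF) signalling in equine tenocytes, chosen by gene name: PDGFA, PDGFB, PDGFC, PDGFD, PDGFRA, PDGFRB, PDGFRL, HGF and MET. All 9 were found among the 29196 gene names of each of 2 tables, and all 9 passed the filter on low values in both. Tenocytes, the fibroblasts of tendon, came from the superficial digital flexor tendon of adult wild-type Thoroughbred horses, were expanded in passage culture with serum and were seeded in gels of bovine type I collagen, in which they were kept for 14 days. In the first batch, lines 1 to 5 were cultured without cytokine (control) or with 1 nM IL-1β (10 libraries). In the second batch, lines 6 to 8, from further donors, were cultured as control, with 1 nM IL-1β, or with 1 nM IL-1β plus 100 ng/ml of the interleukin 1 receptor antagonist IL1Ra (9 libraries). There was no culture with IL1Ra alone, and the medium of all groups held fetal bovine serum, which itself carries growth factors.

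PDGFs are dimeric mitogens and chemoattractants of mesenchymal cells. PDGFA and PDGFB are secreted in active form, whereas PDGFC and PDGFD carry an N-terminal CUB domain and become active after proteolytic cleavage. They bind the receptor tyrosine kinases PDGFRα, which prefers the A and C chains, and PDGFRβ, which prefers the B and D chains, and both receptors mark fibroblasts and perivascular cells. HGF is made by mesenchymal cells as an inactive precursor, is cleaved by serine proteases and acts through a single receptor tyrosine kinase, MET.

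Values are taken to be normalised counts, that is, estimated gene counts divided by a scaling factor for the library. Whether a correction for transcript length entered that scaling is not known, so levels are compared between libraries and not between genes. The sum of normalised counts per library was 43393903 to 49197980 in lines 1 to 5 and 24964149 to 34602014 in lines 6 to 8. A gene was called differentially expressed (DE) when limma, fitted to all genes tested in a batch on the log2(normalised count + 1) scale, gave a Benjamini-Hochberg adjusted p under 0.05 and a log2-fold change of at least 1 in either direction. The words rose and fell are kept for DE genes, and the fitted change of a gene with few counts depends on the added 1. The tenocyte markers COL1A1, COL1A2, DCN, SCX, MKX and THBS4 were detected in both batches, and TNMD was under 10 normalised counts in every library. The endothelial CDH5 and KDR were under 10 in every library, and PECAM1, VWF and TEK reached 73.2, 44.6 and 10.1. Of the leukocyte markers PTPRC, AIF1, CD3E and LYZ were under 10 in every library, whereas CD14 ranged from 0 to 2811. CD14 went from 0 in the control to 1262 in the IL-1β culture of line 7, and whether its reads were assigned correctly was not tested, so it is not read as a leukocyte level. These are bulk libraries, in which fewer cells expressing a gene and less RNA per cell cannot be told apart.

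In lines 1 to 5, IL-1β was accompanied by higher HGF and lower PDGFC and PDGFD. These were the 3 of 9 genes that were DE, 1 higher and 2 lower, where 12.8% of the 14719 genes tested were DE (4.91% higher and 7.9% lower). A further gene, PDGFRA, had an adjusted p under 0.05 (limma) with a change below the fold threshold, which makes 4 of 9 genes at any fold change against 27.7% of all genes tested. Control and IL-1β values did not overlap for PDGFC, PDGFD and PDGFRA, 3 of 9 genes, against 19.5% of all genes tested. The median log2-fold change of the 9 genes was −0.56, and that of all genes tested was −0.0034.

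**Figure D1:**
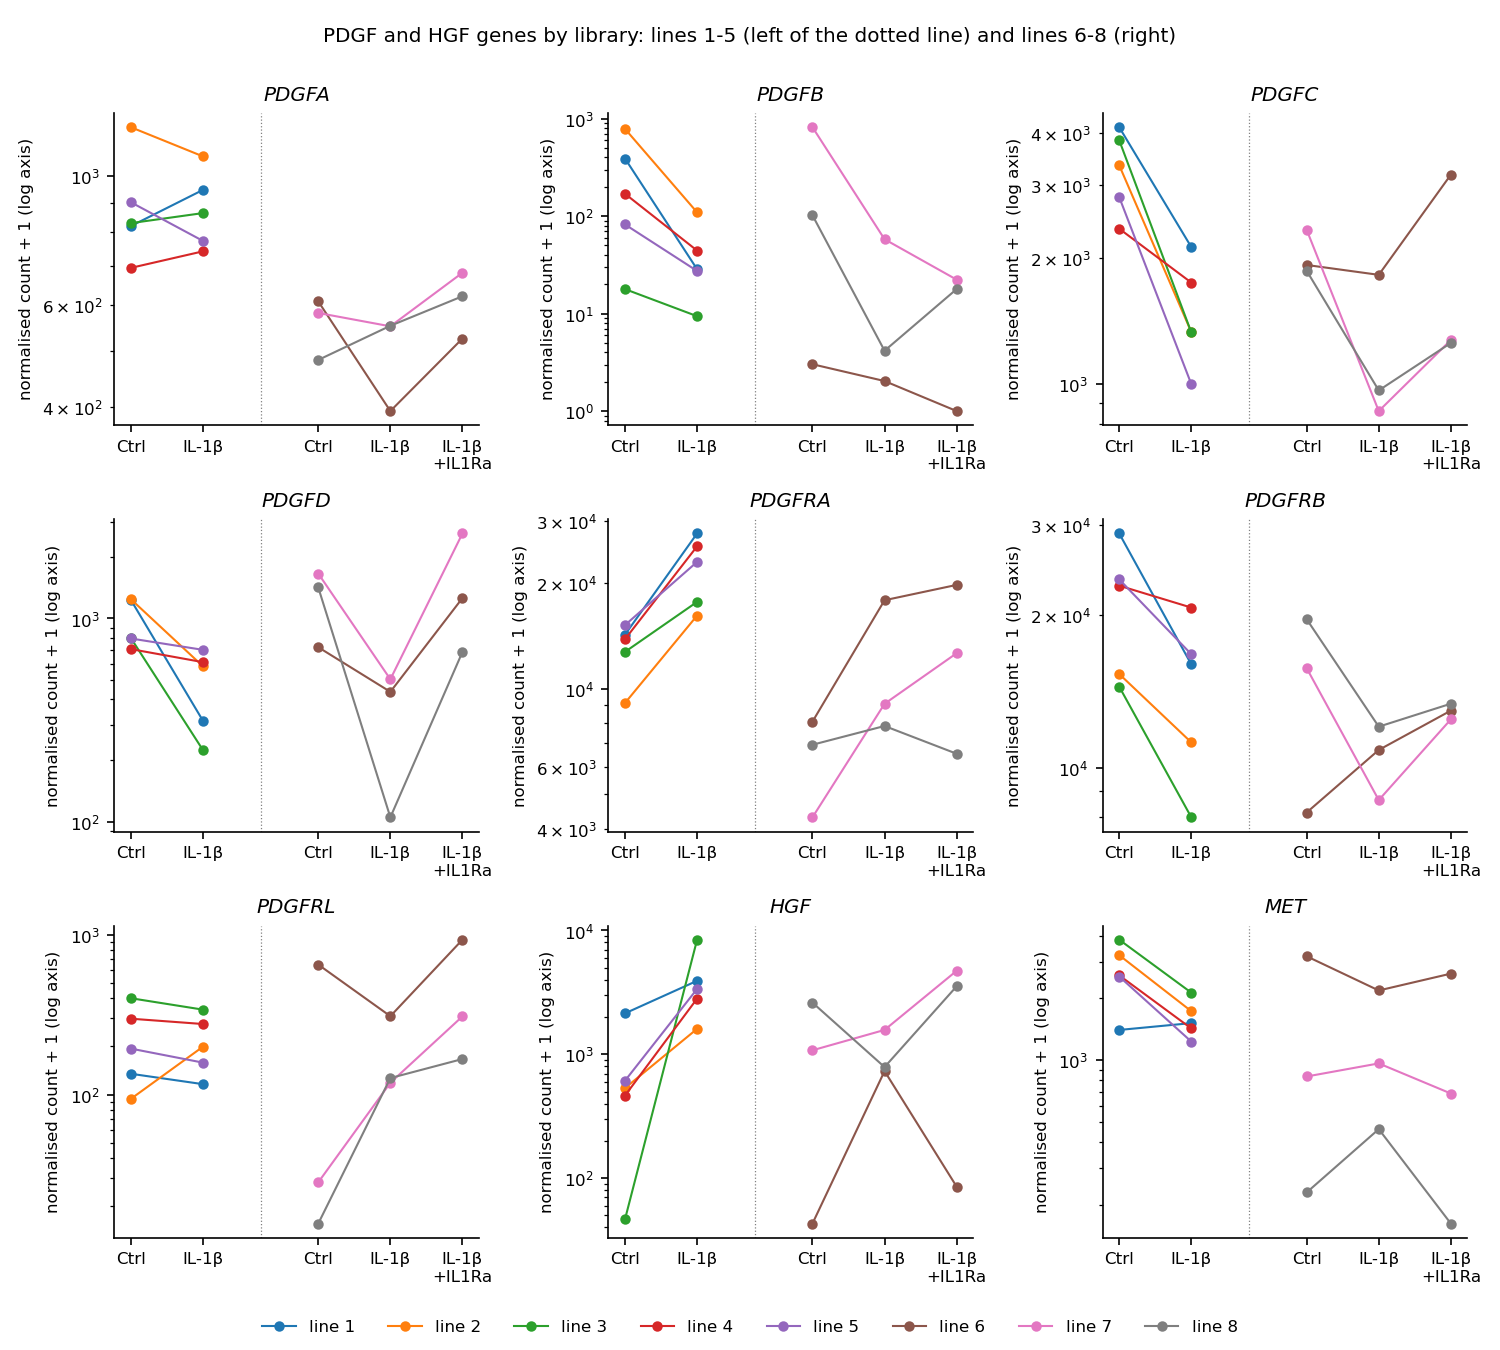
Normalised count + 1 of each gene in every library (log axis), with one line per tenocyte line joining its control, IL-1β and IL-1β + IL1Ra cultures; lines 1 to 5 stand left and lines 6 to 8 right of the dotted line, and the 2 batches were normalised separately. PDGFC and PDGFD were lower with IL-1β in all 8 tenocyte lines and PDGFRA was higher in all 8, whereas HGF was higher in 7 of 8.

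PDGFC, a ligand of PDGFRα expressed by fibroblasts, was the most evenly lowered of the ligands. Control cultures of lines 1 to 5 had 4129, 3345, 3842, 2355 and 2805 normalised counts, and the same lines with IL-1β had 2128, 1330, 1327, 1748 and 997. Every IL-1β culture was below every control culture, with line 4 the least changed. PDGFC fell by 1.15 on the log2 scale (SE 0.22, adjusted p = 0.00338, limma), and with any 1 line left out the log2-fold change was between −1.33 and −1.05. Control values of lines 6 to 8 were 1927, 2341 and 1866 and IL-1β values 1825, 859 and 963. The groups again did not overlap, but line 6 was almost level with its control. The log2-fold change of −0.83 (SE 0.41) had an adjusted p of 0.499 (limma, and 0.164 with the line as a block).

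PDGFD, a ligand of PDGFRβ, showed 2 patterns among lines 1 to 5. Its control values were 1235, 1244, 801, 706 and 796 normalised counts, against 313, 581, 224, 609 and 700 with IL-1β. Lines 1, 2 and 3 kept 0.253, 0.467 and 0.280 of their control value, whereas lines 4 and 5 kept 0.862 and 0.879. PDGFD fell by 1.06 (SE 0.32, adjusted p = 0.0331, limma). The call was lost without line 1 (−0.83), line 2 (−1.05) or line 3 (−0.87), with adjusted p between 0.0649 and 0.134, and under quantile normalisation, where the change was −0.98.

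For lines 6 to 8, PDGFD was 721, 1664 and 1420 normalised counts in control and 434, 501 and 104 with IL-1β. Each line was lower with IL-1β and the groups did not overlap, with line 8 at 0.0732 of its control. The log2-fold change was −2.07 (SE 0.70) with an adjusted p of 0.294 (limma; 0.0563 with the line as a block). The change therefore had the same direction in all 8 lines, and passed the test in lines 1 to 5 only. The difference in change between the batches, 1.01 on the log2 scale, gave p = 0.286 (adjusted p = 0.643 over 9 genes, exact permutation test, two-sided).

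PDGFB, the B chain best known as a product of platelets and endothelium, varied more between lines than nearly all other genes. Control values in lines 1 to 5 were 389, 784, 16.8, 169 and 81.1 normalised counts, and IL-1β values were 27.5, 108, 8.41, 43.3 and 26.4. All 5 lines were lower with IL-1β although the groups overlapped. The SD of the control values over lines was 2.11 on the log2 scale, at percentile 98.6 of all genes tested (median 0.28). The log2-fold change of −2.21 (SE 0.97) had an adjusted p of 0.117 (limma), whereas with the line as a block the same change had an SE of 0.42 and an adjusted p of 0.00664, which made PDGFB the fourth gene called, where 16.2% of all genes were. It was also called without line 3, the line with the fewest PDGFB counts (−2.54, adjusted p = 0.0368, limma).

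The second batch had PDGFB values of 2.02, 816 and 101 normalised counts in control and 1.03, 56.9 and 3.16 with IL-1β. Line 6 was below 3 counts in each culture, so no fold is given for it, and lines 7 and 8 were both lower. The fitted log2-fold change was −3.00 (SE 2.20, adjusted p = 0.709, limma, and 0.107 with the line as a block). It was −4.22 without line 6 (adjusted p = 0.226, limma). The endothelial markers that could accompany PDGFB summed to 22.8 to 50.2 normalised counts in the controls of lines 1 to 5 and 17.5 to 91.0 with IL-1β. In these lines 3 of 5 (CDH5, TEK and KDR) were under 10 in every library. PECAM1 and VWF differed in direction there, so the sum hides their changes. PECAM1 was higher in 5 of 5 lines (log2-fold change 1.68, adjusted p = 0.115, limma). It was DE only with the line as a block, where 16.2% of all genes were. VWF was lower in 4 of 5 lines (−1.53, adjusted p = 0.0950, limma). For lines 6 to 8 the sums were 26.5 to 38.0 in control and 17.24 to 37.55 with IL-1β, where TEK reached 10.1. PECAM1 and VWF had changes of 1.16 and −1.67 in these lines (adjusted p = 0.828 and 0.598, limma).

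PDGFA, the A chain, had control and IL-1β values that overlapped widely. It ranged from 693 to 1213 normalised counts in the control cultures of lines 1 to 5 and from 740 to 1080 with IL-1β, and was higher in 3 lines and lower in 2. The log2-fold change was −0.01 with a 95% interval of −0.36 to 0.35. The second batch had 481 to 607 in control and 392 to 551 with IL-1β, and the fitted change was −0.17 on the log2 scale with an interval of −0.65 to 0.31. Among the 4 ligands, the within-library log2 ratio of PDGFA to PDGFB was 2.55 ± 1.99 in control and 4.75 ± 1.20 with IL-1β in lines 1 to 5 (SD, n = 5), a difference of 2.21 that did not pass an exact permutation test (p = 0.0873, adjusted p = 0.233 over 8 ratio tests, two-sided). The log2 ratio of PDGFC to PDGFD differed by −0.09 between the conditions (exact permutation test, p = 0.857). For lines 6 to 8 the difference was 1.25 for PDGFC to PDGFD, positive in 3 of 3 lines (exact permutation test, p = 0.20), and 2.83 for PDGFA to PDGFB, positive in 2 of 3 (p = 0.40, exact).

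The 2 signalling receptors differed in direction, with PDGFRA higher and PDGFRB lower in every one of lines 1 to 5. PDGFRA was 14251, 9105, 12729, 13833 and 15172 normalised counts in the control cultures of lines 1 to 5 and 27662, 16148, 17667, 25427 and 22960 with IL-1β. The lowest IL-1β value was above the highest control value, and each line was 1.39 to 1.94 times its control. The log2-fold change was 0.75 (SE 0.18, adjusted p = 0.0131, limma), between 0.69 and 0.81 with any line left out, and so below the fold threshold throughout. Lines 6 to 8 had PDGFRA values of 8056, 4303 and 6924 in control and 17856, 9057 and 7830 with IL-1β. Lines 6 and 7 had 2.22 and 2.10 times their control and line 8 had 1.13 times. The log2-fold change was 0.80 (SE 0.47, adjusted p = 0.596, limma, and 0.188 with the line as a block).

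PDGFRB was 28921, 15303, 14450, 22829 and 23488 normalised counts in the controls of lines 1 to 5 and 15984, 11226, 7995, 20673 and 16733 with IL-1β. All 5 lines were lower with IL-1β and the groups overlapped because the lines differed in level. The log2-fold change was −0.56 (SE 0.28, adjusted p = 0.161, limma; adjusted p = 0.0113 with the line as a block, still below the fold threshold). Of lines 6 to 8, the controls had 8172, 15710 and 19611 and the IL-1β cultures 10848, 8645 and 12054, so that line 6 was higher and lines 7 and 8 lower. The log2-fold change was −0.39 (SE 0.32), and −0.78 without line 6.

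The balance of the receptors was examined as the log2 ratio of PDGFRA to PDGFRB within each library. This ratio does not depend on a factor shared by all genes of a library. Any effect of transcript length was not removed here, so only the change of the ratio is read. In lines 1 to 5 it was −0.66 ± 0.30 in control and 0.64 ± 0.33 with IL-1β (SD, n = 5), without overlap. The difference of 1.30 was positive in 5 of 5 lines, with p = 0.00794 by an exact permutation test (two-sided), the smallest p that 5 against 5 libraries can give, and an adjusted p of 0.0635 over the 8 ratio tests. That test does not use the pairing by line, and an exact sign-flip test of the within-line differences gave p = 0.0625, the smallest that 5 lines allow (adjusted p = 0.167). In lines 6 to 8 the ratio was −1.13 ± 0.98 and 0.05 ± 0.67 (SD, n = 3), a difference of 1.18, positive in 3 of 3 lines (exact permutation test, p = 0.20). With 3 against 3 libraries this test cannot go below 0.10.

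**Figure D2:**
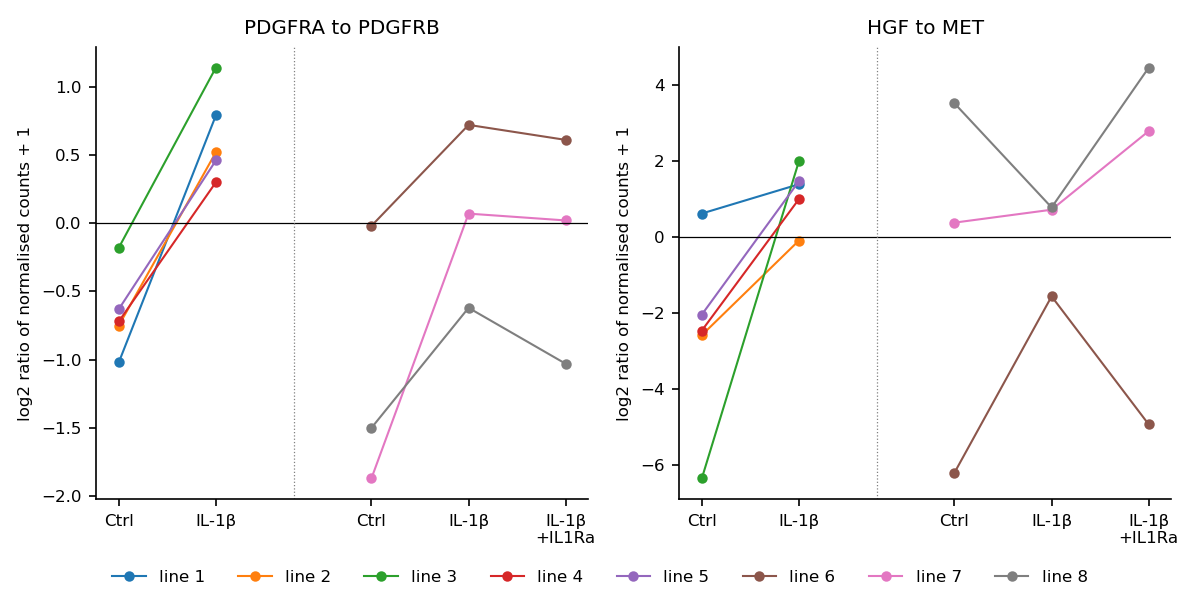
Within-library log2 ratio of PDGFRA to PDGFRB (left) and of HGF to MET (right), with one line per tenocyte line and the batches set apart by the dotted line. The receptor ratio was higher with IL-1β in all 8 lines, while the HGF to MET ratio was higher in 7 of 8 and lower in line 8.

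Markers of mural cells (pericytes and smooth muscle, which express PDGFRB) were read in the same libraries, in which the kinds of cell were not counted. The summed level of the 5 mural markers measured was 6748 to 9640 normalised counts in the controls of lines 1 to 5 and 830 to 2567 with IL-1β. In these controls most of the summed counts came from CSPG4 and MCAM, with medians of 5254.5 and 1586, which is not read as a ranking of expression. NOTCH3, RGS5 and ABCC9 had medians of 213, 85.2 and 0. CSPG4, MCAM, NOTCH3 and RGS5 fell, with log2-fold changes of −3.80, −1.63, −1.87 and −1.68 (limma, adjusted p between 0.00240 and 0.00518), while ABCC9 was not DE (log2-fold change 3.36, adjusted p = 0.130, and DE with the line as a block). The sums were 2419 to 5051 in control, 623 to 1316 with IL-1β and 1054 to 2717 with IL1Ra added in lines 6 to 8, with 0 of the 5 DE for IL-1β against control (0.341% of all genes), and CSPG4 and MCAM DE and lower with the line as a block (adjusted p = 0.0312 and 0.0120, limma, against 5.18% of all genes). Of the 6 tenocyte markers tested, 5 fell in lines 1 to 5 (12.8% of all genes were DE), among them SCX, MKX and COL1A1 with log2-fold changes of −4.25, −3.95 and −1.83. DCN was higher in 5 of 5 lines without being DE (0.73, adjusted p = 0.0626, limma). In lines 6 to 8, 0 of the 6 were DE (SCX with the line as a block), and DCN was higher in 3 of 3 lines (1.61, adjusted p = 0.498, limma). Of the epithelial markers, CDH1 fell in lines 1 to 5 (log2-fold change −4.75, adjusted p = 0.00213, limma). It was 1413 to 3904 normalised counts in control and 20.5 to 544 with IL-1β. In lines 6 to 8 CDH1 was 10.3 to 107 in control and 0 to 72.1 with IL-1β. It was not DE there (−3.00, adjusted p = 0.590, limma). KRT8 did not pass the filter, with medians in lines 1 to 5 of 2.61 in control and 6.84 with IL-1β. EPCAM and KRT18 were under 10 in every library. The part of these shifts in the receptor and ligand values was not tested.

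PDGFRL encodes a secreted protein that resembles the extracellular domain of PDGF receptors and lacks a kinase. In lines 1 to 5 it ranged from 92.9 to 399 normalised counts in control and from 115 to 338 with IL-1β, with 1 line higher and 4 lower, and a log2-fold change of 0.05 (95% interval −0.89 to 0.99). The lines of the second batch were further apart. Their controls had 648, 27.3 and 14.6 and their IL-1β cultures 308, 117 and 126, so that line 6 went down and lines 7 and 8 went up to 4.31 and 8.60 times their control. The log2-fold change of 1.34 (SE 1.31) did not pass the test (adjusted p = 0.815, limma, and 0.333 with the line as a block). It was 2.54 without line 6 (adjusted p = 0.0660, limma).

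HGF had the largest log2-fold change of the 9 genes in lines 1 to 5, at percentile 97.2 of all genes tested by size. Control cultures had 2141, 533, 45.6, 464 and 611 normalised counts, and IL-1β cultures had 3922, 1605, 8421, 2817 and 3371. All 5 lines were higher with IL-1β, but the control of line 1 was above the IL-1β culture of line 2, so the groups overlapped. HGF rose by 3.00 (SE 0.85, adjusted p = 0.0239, limma). The size of the change differed widely between lines, from 1.83 times in line 1 and 3.01 times in line 2 to 185 times in line 3, whose control had the fewest counts and whose IL-1β culture had the most. Without line 3 the log2-fold change was 1.88 (adjusted p = 0.0261), and the call was lost without line 4 (3.11, adjusted p = 0.0711) or line 5 (3.14, adjusted p = 0.0768).

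Lines 6 to 8 differed in direction for HGF. Their controls had 42.0, 1077 and 2613 normalised counts and their IL-1β cultures 731, 1572 and 788. Line 6, low in control, was 17.4 times higher with IL-1β, line 7 was 1.46 times higher and line 8 was at 0.302 of its control. The log2-fold change of 0.97 (SE 1.82, adjusted p = 0.920, limma, and 0.656 with the line as a block) became −0.59 without line 6. The spread of HGF between lines was narrower with IL-1β in both batches. Its SD of log2 values went from 2.00 to 0.87 in lines 1 to 5 and from 3.12 to 0.61 in lines 6 to 8. PDGFB, PDGFRL and MET also had a smaller SD with IL-1β in both batches. The median SD of all genes tested went from 0.28 to 0.29 and from 0.37 to 0.50. These SDs were not tested against each other.

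MET, the HGF receptor, was 1398, 3218, 3825, 2571 and 2537 normalised counts in the controls of lines 1 to 5 and 1509, 1724, 2119, 1422 and 1228 with IL-1β. Lines 2 to 5 were lower with IL-1β, at 0.484 to 0.554 of their control, and line 1, the lowest in control, was level at 1.08 times. The log2-fold change was −0.71 (SE 0.25) with an adjusted p of 0.0570 (limma; 0.0157 with the line as a block), below the fold threshold. Of lines 6 to 8, the controls had 3179, 832 and 228 and the IL-1β cultures 2172, 963 and 462. Line 6 was lower and lines 7 and 8 were higher, for a log2-fold change of 0.23 (SE 1.20), and −0.17 without line 8. Of the 9 genes, MET was the one whose change differed between the batches at an unadjusted p of 0.0357, the smallest that 5 against 3 lines allow (exact permutation test, two-sided), with an adjusted p of 0.321 over the 9 genes.

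In the controls of both batches, the line with the fewest HGF counts had the most MET (line 3 and line 6) and the line with the most HGF had the fewest MET (line 1 and line 8). With IL-1β, line 3 had the highest value of lines 1 to 5 for both genes. The within-library log2 ratio of HGF to MET in lines 1 to 5 was −2.57 ± 2.49 in control and 1.14 ± 0.78 with IL-1β (SD, n = 5). The difference of 3.71 was positive in 5 of 5 lines (exact permutation test, two-sided, p = 0.0159, adjusted p = 0.0635 over 8 ratio tests; exact sign-flip test within lines, p = 0.0625, adjusted p = 0.167) and was 2.55 without line 3. The difference was 0.74 in lines 6 to 8, positive in 2 of 3 lines (exact permutation test, p = 0.80), and −1.21 without line 6.

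Between IL-1β and control in lines 6 to 8, 0 of the 9 genes were DE, where 0.341% of the 16705 genes tested were. With the line as a block it was again 0 of 9, against 5.18% of all genes. In the fit without a block, 1 of 9 (PDGFD) had an unadjusted p under 0.05 (limma), against 11.4% of all genes tested. With the line as a block it was 4 of 9 (PDGFB, PDGFC, PDGFD and PDGFRA), against 3708 of the 16705 genes. Values did not overlap for 2 of 9 (PDGFC and PDGFD), against 16.4%.

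**Figure D3:**
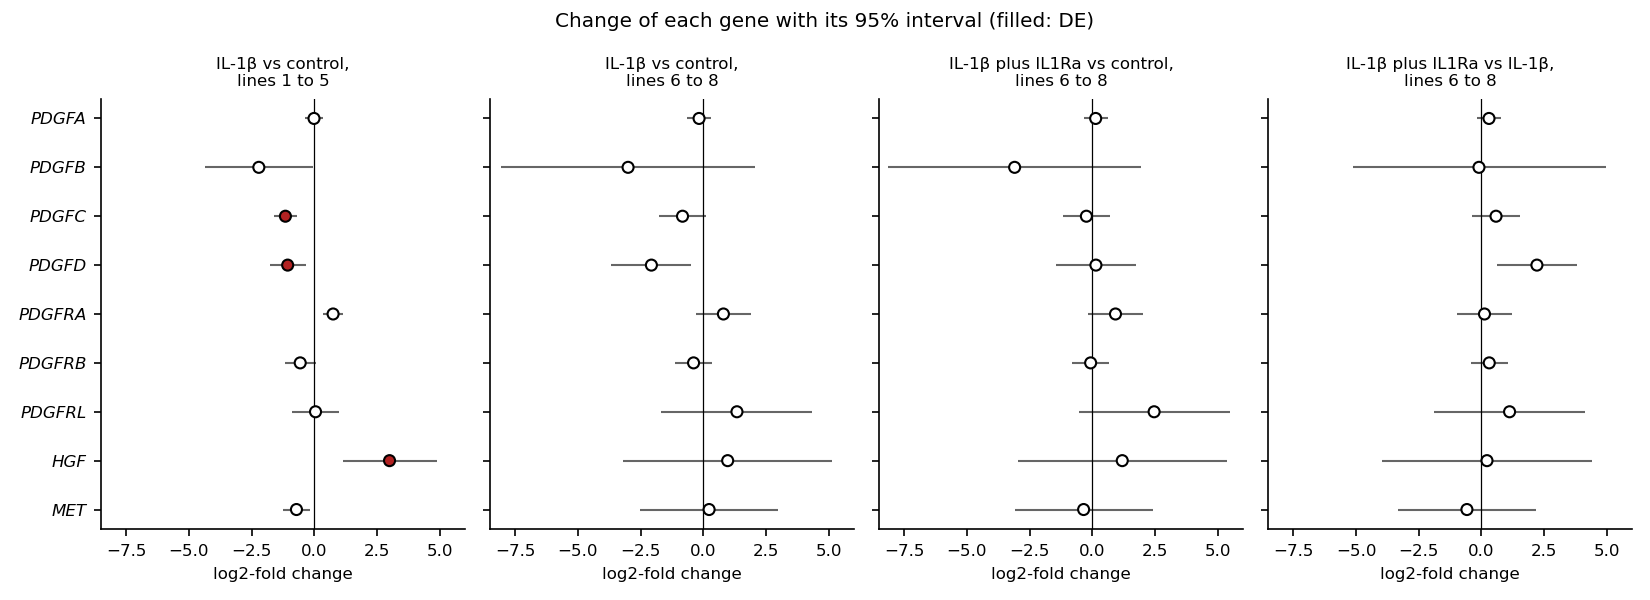
Log2-fold change of each gene (point) with its 95% interval from limma (bar) in the 4 comparisons; filled points were DE. HGF, PDGFC and PDGFD were DE in lines 1 to 5, and for each of the 9 genes the interval for IL-1β against control was wider in lines 6 to 8 than in lines 1 to 5.

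The question put by the third culture of lines 6 to 8 was what IL1Ra, which occupies the IL-1 receptor without signalling, does to the response. PDGFD was the gene with the largest difference between IL-1β + IL1Ra and IL-1β. With IL1Ra its values were 1260, 2622 and 683 normalised counts, against 434, 501 and 104 with IL-1β alone. The 3 cultures with IL1Ra were all above the 3 without it, by 1.53, 2.39 and 2.71 on the log2 scale in lines 6, 7 and 8. The log2-fold change of 2.21 (SE 0.70, unadjusted p = 0.0125) did not pass correction over all genes (adjusted p = 1.00, limma; 0.264 with the line as a block). Against control the change with IL-1β + IL1Ra was 0.14 (SE 0.70), with lines 6 and 7 above and line 8 below their control.

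0 of the 9 genes were DE between IL-1β + IL1Ra and IL-1β in limma, as were 0% of all genes tested, and PDGFD was the 1 of 9 at an unadjusted p under 0.05 (2.78% of all genes). Values did not overlap for PDGFD and PDGFRB, 2 of 9 genes, against 6.47%. PDGFRB was 12964, 12461 and 13376 normalised counts with IL1Ra, each above the IL-1β culture of its line, with a log2-fold change of 0.31 (SE 0.32). These were the closest values of any group of PDGFRB. Each line also had more PDGFC with IL1Ra, at 3176, 1273 and 1252, for a change of 0.58 on the log2 scale (SE 0.41, adjusted p = 1.00, limma). Line 6 was then above its control and lines 7 and 8 stayed at 0.544 and 0.671 of theirs.

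PDGFRA, PDGFB and PDGFRL stayed away from their control values in most lines when IL1Ra was added. PDGFRA was 19743, 12618 and 6528 normalised counts with IL-1β + IL1Ra, so lines 6 and 7 were further above control (2.45 and 2.93 times) than with IL-1β alone and line 8 was at 0.943 of its control. PDGFB was 0, 21.3 and 16.9, which left lines 7 and 8 at 0.0261 and 0.167 of their control. PDGFRL was 927, 307 and 166, above the control of each line, and differed from control by 2.46 on the log2 scale (SE 1.31, adjusted p = 0.967, limma) and an unadjusted p of 0.0101 with the line as a block (adjusted p = 0.221).

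HGF and MET with IL1Ra again depended on the line. HGF was 84.4, 4725 and 3541 normalised counts, so line 6 returned most of the way to its control whereas lines 7 and 8 had their highest HGF of the 3 cultures. MET was 2620, 688 and 161, below control in 3 of 3 lines by 0.27 to 0.50 on the log2 scale (log2-fold change −0.35, SE 1.20). Against control, 0 of the 9 genes were DE with IL-1β + IL1Ra, where 0.012% of all genes were, 0 of 9 had an unadjusted p under 0.05 (5.67% of all genes, limma), and 0 of 9 did not overlap (11.8%). With the line as a block 0 of 9 were DE either against control (0.251% of all genes) or against IL-1β (0.00599%). At an unadjusted p under 0.05 (limma) the block fit held 3 of 9 against control (PDGFB, PDGFRA and PDGFRL), and 2233 of all 16705 genes. Against IL-1β it held 1 of 9 (PDGFD), and 1400 of all 16705 genes. The 3 comparisons of lines 6 to 8 share their libraries in pairs and are not independent of each other.

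**Figure D4:**
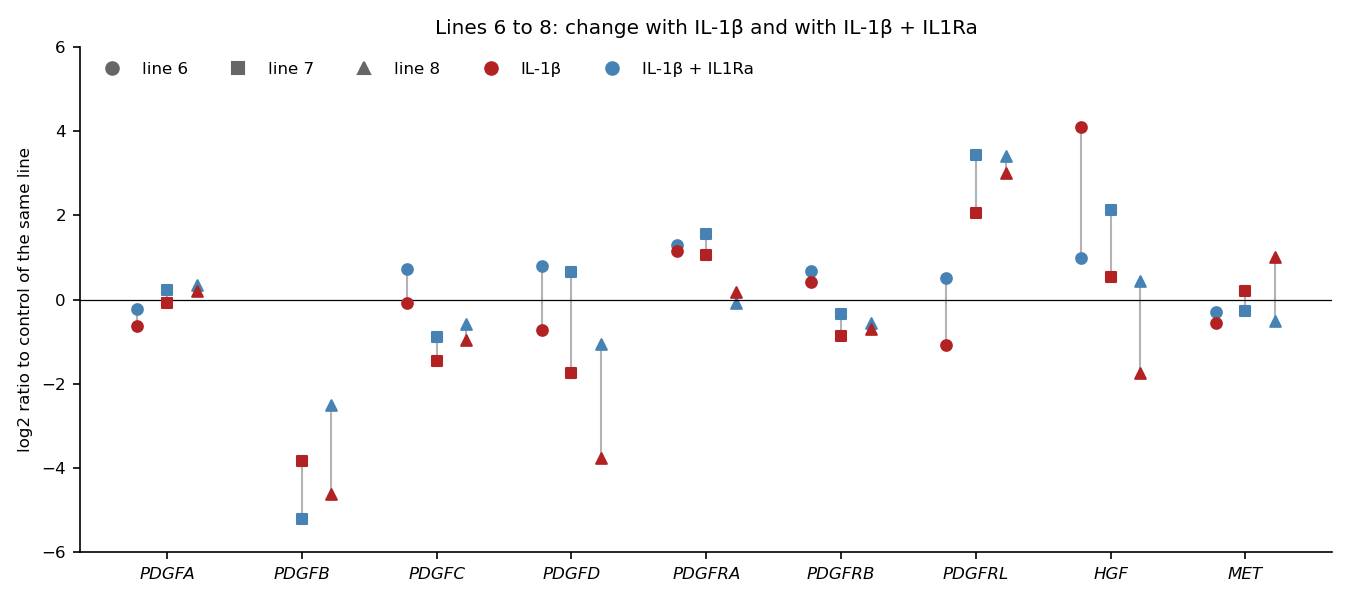
Log2 ratio to the control culture of the same line for IL-1β (red) and IL-1β + IL1Ra (blue) in lines 6 (circles), 7 (squares) and 8 (triangles), with a grey bar joining the cultures of a line; PDGFB of line 6, below 3 counts in each culture, is left out. For PDGFD the blue point stood 1.53 to 2.71 above the red point in each line, whereas for PDGFRA both points were above 1 in lines 6 and 7.

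Genes that act around these ligands and receptors were followed as 5 lists of 47 genes, of which 42 were tested in lines 1 to 5. There 6 were DE, 1 higher and 5 lower, against 12.8% of all genes tested, and 13 had an adjusted p under 0.05 at any fold change (3 higher and 10 lower), against 27.7%. The median log2-fold change over the lists was −0.05. Of 43 tested in lines 6 to 8, 1 was DE, against 0.341% of all genes, and with the line as a block 3 were (MST1R, NRP1 and SPINT2, all lower), against 5.18%.

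MST1R, which encodes RON, the receptor tyrosine kinase closest to MET and the receptor of macrophage-stimulating protein, was DE in both batches. In lines 1 to 5 it was 353, 196, 346, 442 and 360 normalised counts in control and 25.6, 42.4, 48.2, 104 and 30.8 with IL-1β. In lines 6 to 8 it was 177, 397 and 371 in control, 45.1, 48.8 and 58.9 with IL-1β and 345, 439 and 382 with IL-1β + IL1Ra. In each of the 8 lines the IL-1β culture was the lowest, and the 3 cultures with IL1Ra lay above their controls. MST1R fell by 2.86 (SE 0.37, adjusted p = 0.000491, limma) in lines 1 to 5 and by 2.53 (SE 0.34, adjusted p = 0.0334) in lines 6 to 8, where the call was lost without line 7 or without line 8. The difference of 2.91 between IL-1β + IL1Ra and IL-1β (SE 0.34, unadjusted p = 2.17e-05) did not pass correction (adjusted p = 0.363, limma; 0.0699 with the line as a block). Its ligand MST1 was not DE (0.37 and 0.55 in the batches). Of the relatives of the PDGF receptors, KIT and CSF1R did not pass the filter, whereas FLT3 passed it in both batches and was not DE.

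Of the proteases that activate these ligands and their inhibitors, 7 of 9 were tested in lines 1 to 5 and 2 were DE, against 12.8% of all genes. SPINT2, a membrane inhibitor of the HGF-activating proteases, fell by 2.49 (SE 0.49, adjusted p = 0.00425, limma), and PLAT, the tissue plasminogen activator that cleaves PDGFC, fell by 1.07 (SE 0.21, adjusted p = 0.00466). PLAU, FURIN, SPINT1 and HPN were not DE, with log2-fold changes of 0.68, 0.05, −0.58 and 1.07. SPINT2 and PLAT in lines 6 to 8 had changes of −2.06 and −0.75 (adjusted p = 0.301 and 0.475, limma).

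Among co-receptors and ligand-binding proteins, 1 of 5 tested was DE in lines 1 to 5, where 12.8% of all genes were. SPARC, a matrix protein that binds PDGF B chains, fell by 1.00 (SE 0.21, adjusted p = 0.00612, limma), on the fold threshold, with values between −1.10 and −0.91 when a line was left out and the call kept in 2 of 5 such fits. The HGF co-receptor CD44 (−0.38), the PDGF-binding LRP1 (−0.64), NRP1 (−0.34) and PLXNB1 (0.39) were not DE.

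For receptor-proximal signalling, 0 of 14 genes were DE in either batch, against 12.8% of all genes in lines 1 to 5 and 0.341% in lines 6 to 8. In lines 1 to 5, 5 of them had an adjusted p under 0.05 below the fold threshold (limma), where 27.7% of all genes had one at any fold change. They were the MET docking protein GAB1 with a log2-fold change of 0.83, RASA1 with −0.54, PTPN11 with −0.36, SRC with −0.38 and STAT3 with −0.57. Of 13 genes known to respond to growth factors, 8 had a negative and 5 a positive change in lines 1 to 5. EGR2 fell by 3.41 (SE 0.60, adjusted p = 0.00240, limma) and ETV4 rose by 1.07 (SE 0.25, adjusted p = 0.00987). MYC had a change of −0.71 with an adjusted p of 0.00939, below the fold threshold, and EGR3 one of −1.36 with an adjusted p of 0.0544 (limma; 0.0417 and DE with the line as a block). EGR1 (−0.69), DUSP6 (−0.59), ETV5 (−0.43), JUNB (−0.10), IER2 (−0.05), SPRY2 (0.07), PHLDA1 (0.30), FOS (0.32) and SPRY4 (0.45) were not DE. None of the 13 was DE in lines 6 to 8, and EGR2 had a change of −2.34 (adjusted p = 0.280, limma).

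**Figure D5:**
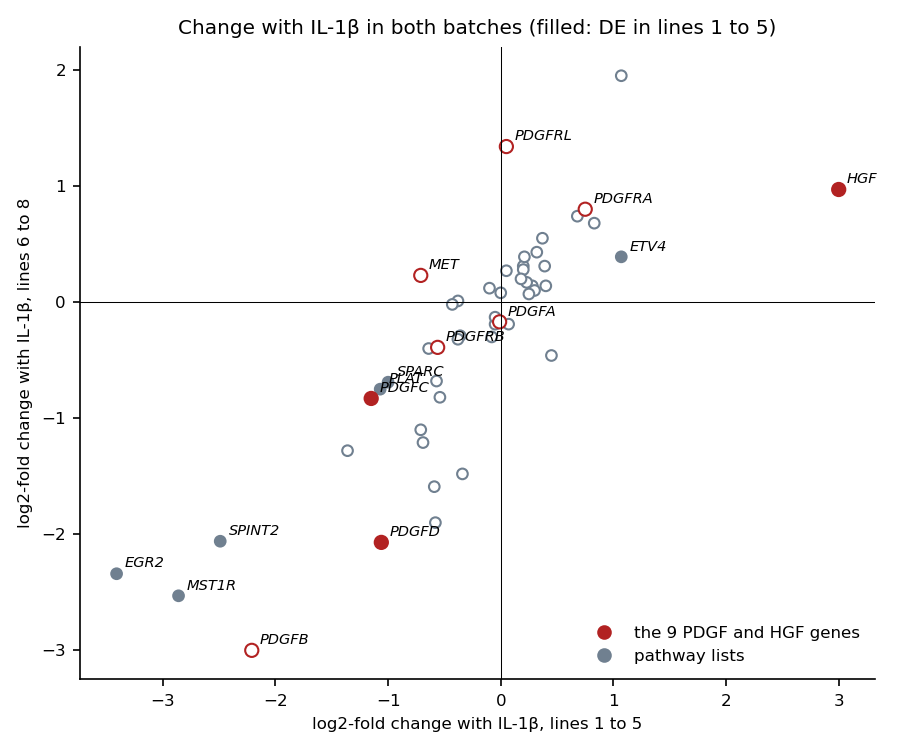
Log2-fold change with IL-1β in lines 1 to 5 (x axis) and lines 6 to 8 (y axis) for the 9 PDGF and HGF genes (red) and the genes of the pathway lists tested in both batches (grey); filled points were DE in lines 1 to 5. PDGFB, PDGFC, PDGFD, MST1R, SPINT2 and EGR2 were below 0 on both axes, PDGFRA and HGF above 0 on both, and MET changed sign.

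For each gene, other genes were ranked by the lower of their 2 Pearson correlations with it over the 10 libraries of lines 1 to 5 and the 9 of lines 6 to 8, among 12351 candidates. These are descriptions over libraries that share lines and treatments. HGF was followed most closely by CSRNP2 (0.924 and 0.923) and PDK4 (0.928 and 0.921), and MET by ADARB1 (0.919 and 0.962) and KCNK2 (0.912 and 0.920). The nearest genes were PPP1R3D and DPYD for PDGFRA and TRERF1 and FAM193A for PDGFRB, with lower correlations of 0.829 to 0.857. PDGFC was most like PIP4K2A and AGGF1, PDGFD like EPB41L4B and KIAA0586, PDGFB like GUCY1B1 and MYOM3, PDGFRL like BST1 and TRPS1, and PDGFA like BICDL2 and UTP23.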

How the data were processed

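The deposited signal values were taken to be counts per gene that the authors normalised with DESeq2, batch by batch. Whether only a size factor per library or also a factor for transcript length was used is not known. Libraries were made with a stranded mRNA kit per the labels. Per the study's methods, the authors quantified paired-end reads against the EquCab3.0 transcriptome with Salmon and imported gene totals with tximport. Submitters' processing notes of the authors name DESeq2 1.36 and R 4.2.1. As each batch is a table of its own, tests were made within a batch. Low values were near whole numbers of reads (within 0.05) in only 43.2% to 67.1% of cases, so read depth was not recovered, no count model was fitted and the sums of normalised counts stand in for depth.

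The 9 genes and all lists were chosen with earlier results of these data known. A gene was tested if it reached 10 normalised counts in 5 libraries of the first batch or 3 of the second. Models were fitted to log2(normalised count + 1) by limma (version 3.58.1, R 4.3.3, lmFit followed by eBayes using a trend), and p-values were adjusted over all genes tested by the Benjamini-Hochberg method. The 9 libraries of the second batch shared 1 fit. Log2 ratios within a library and changes per line were compared by exact permutation tests over all arrangements (numpy 2.4.6).

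Libraries of a line came from 1 donor, so the line pairs them. Deviations from the condition means had correlations of 0.351 to 0.578 for the 5 same-line pairs of the first batch and 0.535 to 0.794 for the 9 of the second, against −0.625 to 0.288 between different lines. The fit without a block was the main one, since the study's methods state no block, and the block was an alternative, with other pseudocounts, filters, scalings and each line left out. Genes named are the 9 genes, genes of the fixed pathway and marker lists (DE ones and those a sentence on a list needs) and the 2 genes most alike each of the 9. The values of 1 gene of the lists are not reported here. No sequence or coordinate is given because no reference of the files' build was used here.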

Additional observations from a re-analysis of the deposited data

Results flagged for a closer look

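One value of the 9 genes stood apart from its group on the scale of normalised counts. In the control cultures of lines 1 to 5, HGF in line 1 was 2141 normalised counts, against 45.6 to 611 in the other 4 lines, a gap that is large relative to the range of the group by Dixon's criterion. In all, 26 groups of 5 values were checked, and chance alone flags about 1 in 20 groups if values are normally distributed. On the log2 scale used for the tests, HGF was 11.1 in line 1 and 5.54 in line 3, against 8.86 to 9.26 in the other lines. Line 3 thus stood further from them than line 1 on that scale. Without line 1 the log2-fold change of HGF was 3.54 (adjusted p = 0.0189, limma).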

How the results depend on the processing

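Of the fitted changes of the 9 genes and their differences between batches, 508 of 540 alternative values kept their direction and side of the threshold. In lines 1 to 5, which held all the calls, 105 alternative values did so, 6 lost a call, 2 gained one and 4 changed sign. In lines 6 to 8 and between batches none of the 9 genes passed in the main fit, so no call could be lost there. With the line as a replicate block, PDGFB was called in lines 1 to 5 (−2.21, adjusted p = 0.00664, limma), no other call among the 9 genes changed, and the count of all genes DE was 2386 in lines 1 to 5 and, in lines 6 to 8, 865 for IL-1β against control, 42 for IL-1β + IL1Ra against control and 1 for IL-1β + IL1Ra against IL-1β. For IL-1β against control the count was 4078 by adjusted p alone in lines 1 to 5, and in lines 6 to 8 it was 34 without the trend and 32 with only the 2 conditions fitted. For IL-1β + IL1Ra against control it was 5 under quantile normalisation and 0 with only the 2 conditions fitted. Quantile normalisation gave PDGFD −0.98 and PDGFA 0.01 in lines 1 to 5.

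With 1 line left out, the genes DE numbered 1374 to 1729 in lines 1 to 5 (2 to 3 of the 9 genes), and in lines 6 to 8 0 to 364, 0 to 63 and 0 to 10 in the 3 comparisons, above 0 only without line 6. The sign turned within these ranges in lines 1 to 5 for PDGFA (−0.06 to 0.05) and PDGFRL (−0.21 to 0.13) and for the ratio of PDGFC to PDGFD (−0.36 to 0.22). In lines 6 to 8 it turned with IL-1β for PDGFA (−0.35 to 0.06), HGF (−0.59 to 2.32), MET (−0.17 to 0.61) and the ratio of HGF to MET (−1.21 to 2.49). It turned with IL-1β + IL1Ra against control for PDGFC (−0.73 to 0.07), PDGFD (−0.20 to 0.73) and PDGFRB (−0.44 to 0.17), and against IL-1β for PDGFB (−1.20 to 0.54), PDGFRA (−0.06 to 0.31) and HGF (−0.76 to 1.88). It also turned for the difference between batches of PDGFA (−0.07 to 0.35), PDGFB (−0.02 to 2.01), PDGFC (−0.63 to 0.05), PDGFRA (−0.36 to 0.12) and PDGFRB (−0.41 to 0.22). Apart from lines left out, whose fits hold fewer libraries, the cause of these shifts was not tested. The sums of normalised counts, which are not read depths, are lower and the lines fewer in lines 6 to 8. The part of either in the number of calls was not tested.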
